A study of Mus musculus with 18 samples.

Results

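The genes described here build and run the lysosome of mouse macrophages: subunits of its proton pump, cathepsins, other hydrolases, membrane and lipid-handling proteins, and the TFEB family of transcription factors. They are 38 genes, listed by symbol, of 23052 genes in the deposited tables. The proton pump (V-ATPase) contributes 16, the cathepsins 9, other hydrolases 4 (Hexa, Gusb, Glb1 and Lipa), membrane and lipid-handling proteins 6 (Lamp1, Lamp2, Mcoln1, Npc1, Npc2 and Psap) and the TFEB family 3 (Tfeb, Tfe3 and Mitf). All 38 were found in both tables, and all 38 passed the filter on low counts in both.

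RNA was measured in 18 libraries of bone marrow-derived macrophages from wild-type C57BL6/J mice, differentiated for 7 days (20% L929-conditioned medium, 80% DMEM, serum). One table holds endotoxin-tolerant macrophages in 3 groups of 4 libraries: α-ketoglutarate without glutamine, no glutamine, and glutamine. All 12 of these are tolerant, so that table holds no cells that were not made tolerant. The other table holds 3 groups of 2 libraries: LPS for 6 h, IL-4 for 6 h, and control. The labels used here give neither doses nor the steps that made the cells tolerant, and do not say whether libraries of a group came from separate mice or cultures. The p-values below therefore measure the spread between these libraries, which may be technical. LPS (bacterial lipopolysaccharide) is the classical trigger of inflammatory activation, IL-4 drives alternative activation, and α-ketoglutarate is a tricarboxylic acid cycle intermediate that cells can make from glutamine.

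The lysosome breaks down what a macrophage takes up by phagocytosis and what autophagy delivers. The V-ATPase acidifies it: its soluble V1 sector hydrolyses ATP, and its membrane V0 sector carries protons through a ring of proteolipid subunits and an a subunit. Cathepsins and the other hydrolases need the acid lumen, and several cathepsins also trim antigens for MHC class II. TFEB, TFE3 and MITF bind E-box elements with the letters CACGTG in the promoters of many lysosomal genes, and when nutrients are plentiful mTORC1 keeps them out of the nucleus. In bulk RNA, fewer cells of a type and less RNA per cell cannot be told apart, and mRNA says nothing of pump activity or of where a factor sits in the cell.

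Promoters are shown for 4 genes because CACGTG is the element that this family of factors reads. Mcoln1 and Atp6v0d1 were called in both comparisons that use the glutamine-free libraries, Lamp1 was called in none of the 6 comparisons, and Ctsc had the largest rise with LPS. Each runs from 120 bases before to 10 after the RefSeq transcript start (build GRCm38.p6), 5′ to 3′ on the gene's own strand, with CACGTG in capitals. The Mcoln1 stretch (chr8:3500399-3500528, plus strand) holds 2 copies, which begin 71 and 45 bases before the start. The Atp6v0d1 stretch (chr8:105566055-105566184, minus strand) holds 1, which begins 3 bases before it. The Lamp1 stretch (chr8:13159041-13159170, plus strand) holds 4, and the Ctsc stretch (chr7:88277965-88278094, plus strand) holds 0.
Mcoln1: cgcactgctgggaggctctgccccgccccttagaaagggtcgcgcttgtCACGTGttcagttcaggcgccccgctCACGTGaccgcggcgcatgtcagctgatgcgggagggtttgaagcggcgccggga
Atp6v0d1: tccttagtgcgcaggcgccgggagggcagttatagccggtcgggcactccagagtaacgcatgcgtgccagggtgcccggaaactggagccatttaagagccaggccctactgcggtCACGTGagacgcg
Lamp1: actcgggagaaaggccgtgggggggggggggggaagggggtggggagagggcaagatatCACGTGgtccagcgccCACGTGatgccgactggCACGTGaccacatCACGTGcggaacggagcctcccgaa
Ctsc: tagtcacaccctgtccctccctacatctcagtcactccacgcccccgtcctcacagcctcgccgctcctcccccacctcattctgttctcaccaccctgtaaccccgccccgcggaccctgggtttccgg
Promoter windows from 250 bases before to 50 after the start were found for 30 of the 38 genes. CACGTG stood in a window of 10 of these 30 genes (33.3%), against 2187 of 27025 genes with a RefSeq window of the same length (8.09%). The longer TCACGTG, which contains it, stood in a window of 9 of the 30 genes (30.0%) against 4.29% of all genes with a window, both strands searched. Some genes have several starts: counted by window, CACGTG stood in 10 of 39 (25.6%) against 7.15% of all 32851. Among the 10 genes with CACGTG, 2 were higher and 0 lower in glutamine-free over glutamine libraries, and 2 were higher and 3 lower in LPS over control libraries. Among the 20 genes with a window but without it, 2 were higher and 0 lower in the first of these comparisons, and 8 were higher and 6 lower in the second. Over all genes tested, 4.7% were called in the first (2.3% higher, 2.4% lower) and 52.1% in the second (22.8% higher, 29.3% lower). Of the genes called in the first, Mcoln1 and Atp6v0d1 had CACGTG, Ctsz and Ctsk did not, and no window was found for Atp6v1c1. A match describes letters only and shows no binding.

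Total counts per library were 28302158 to 37834680 in the tolerant table and 34227368 to 39760356 in the other table. The 38 genes took 5.62% to 6.99% of a tolerant library's counts and 3.51% to 5.97% in the other table. Values below are CPM, the reads of a gene per 1000000 counts after TMM scaling within each table. Replicate libraries of a group differed by more than sampling noise in all 21 pairs (chi-square per degree of freedom 7.68 to 173), so none was merged. Tolerant replicates 3 and 4 stood apart from 1 and 2: 56% of all genes differed between them, and of the 38 genes 16 were higher and 9 lower in replicates 3 and 4. The 11 macrophage markers together summed to 26690 to 47109 CPM in every library. Not each of them was high: Cx3cr1 had as few as 106 counts in a tolerant library, and Mertk as few as 334 in the other table. Erythroid and lymphocyte markers each summed to under 1 CPM in every library. The neutrophil list summed to 13.1 to 17.8 CPM in LPS libraries, against 1.84 to 1.95 in IL-4 and 2.84 to 3.19 in control libraries, with its marker Ly6g at 0 counts there. The mast cell list summed to 22.0 to 37.5 CPM in LPS, 1.39 to 1.40 in IL-4 and 0.312 to 0.375 in control libraries. Of that list only Hdc, which makes histamine, was tested, and Mcpt4 was at 0 counts in these libraries. The dendritic cell list summed to 5.13 to 5.81 CPM in LPS, 6.57 to 7.14 in IL-4 and 1.03 to 1.20 in control libraries. Its markers did not move together: of 4 tested, 2 were higher and 2 lower in LPS over IL-4 libraries. Of all genes tested there, 23.4% were called higher and 29.7% lower. The part of these cell types in the results was not tested.

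Levels per kilobase of exon set the genes on one approximate scale. The length counts every annotated exon of a gene, whether or not these cells use it, so ranks between genes are approximate. Ctsd, the main aspartic protease of lysosomes, Ctss, a cysteine protease of antigen presentation, and Psap, the precursor of the saposins that help degrade sphingolipids, were the 3 highest of the 38 in each of the 6 groups, in differing order. In control libraries Ctsd reached 3594 ± 402 and Ctss 2945 ± 92.2 CPM per kb (SD, n = 2), which do not overlap. In glutamine libraries Ctss reached 4979 ± 911 and Ctsd 4042 ± 144 CPM per kb (SD, n = 4). Psap stood at 2974 ± 393 in control and 3411 ± 367 in glutamine libraries. Hexa, the α subunit of β-hexosaminidase, was the highest of the 4 hydrolases at 608 ± 53.8 CPM per kb in control libraries. The pump was led by its accessory subunit Atp6ap1 at 181 ± 16.4 CPM per kb in control libraries, whereas in IL-4 libraries the nucleotide-binding subunit Atp6v1b2 was higher, at 206 ± 6.80 against 148 ± 5.70 for Atp6ap1. Of the TFEB family, Tfe3 stood at 26.4 ± 2.47, Mitf at 17.5 ± 5.96 and Tfeb at 10.96 ± 1.55 CPM per kb in control libraries. Ctsk, a collagen-degrading cathepsin best known from osteoclasts, was the lowest of the 38 there at 4.42 ± 0.484.

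The gene with the highest level per kb in each class is given by library. Ctss stood at 7506, 7922, 7199 and 7000.0 CPM in α-ketoglutarate, 6577, 6339, 7475 and 6523 in glutamine-free and 7755, 7904, 5786 and 5602 CPM in glutamine libraries. Psap stood at 10730, 10820, 8794 and 9823 CPM in α-ketoglutarate, 11600, 11820, 12140 and 9702 in glutamine-free and 9882, 10520, 8532 and 8500.0 CPM in glutamine libraries. Hexa stood at 1390.0, 1423, 1070.0 and 1148 CPM in α-ketoglutarate, 1415, 1350.0, 1285 and 1059 in glutamine-free and 1406, 1354, 1134 and 1130.0 CPM in glutamine libraries. In Ctss, Psap and Hexa all 3 groups overlapped. Ctsd stood at 9565, 10010, 9845 and 10710 CPM in α-ketoglutarate, 10430, 10160, 13090 and 10220 in glutamine-free and 9219, 9214, 9878 and 9703 CPM in glutamine libraries, and its 4 glutamine-free libraries were above the 4 glutamine libraries without passing the test (adjusted p = 0.29). Atp6ap1 stood at 547, 578, 564 and 613 CPM in α-ketoglutarate, 582, 557, 657 and 559 in glutamine-free and 600.2, 594, 585 and 559 CPM in glutamine libraries, which overlapped. After stimulation Ctss stood at 3493 and 3515 CPM in LPS and 3813 and 3856 in IL-4 libraries, against 3911 and 4088 CPM in control libraries. Atp6ap1 stood at 575 and 511 CPM in LPS and 436 and 460.2 in IL-4 libraries, against 583 and 513 CPM in control libraries. LPS libraries lay below control for Ctss and overlapped control for Atp6ap1, and neither gene passed the test in any comparison.

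**Figure D1:**
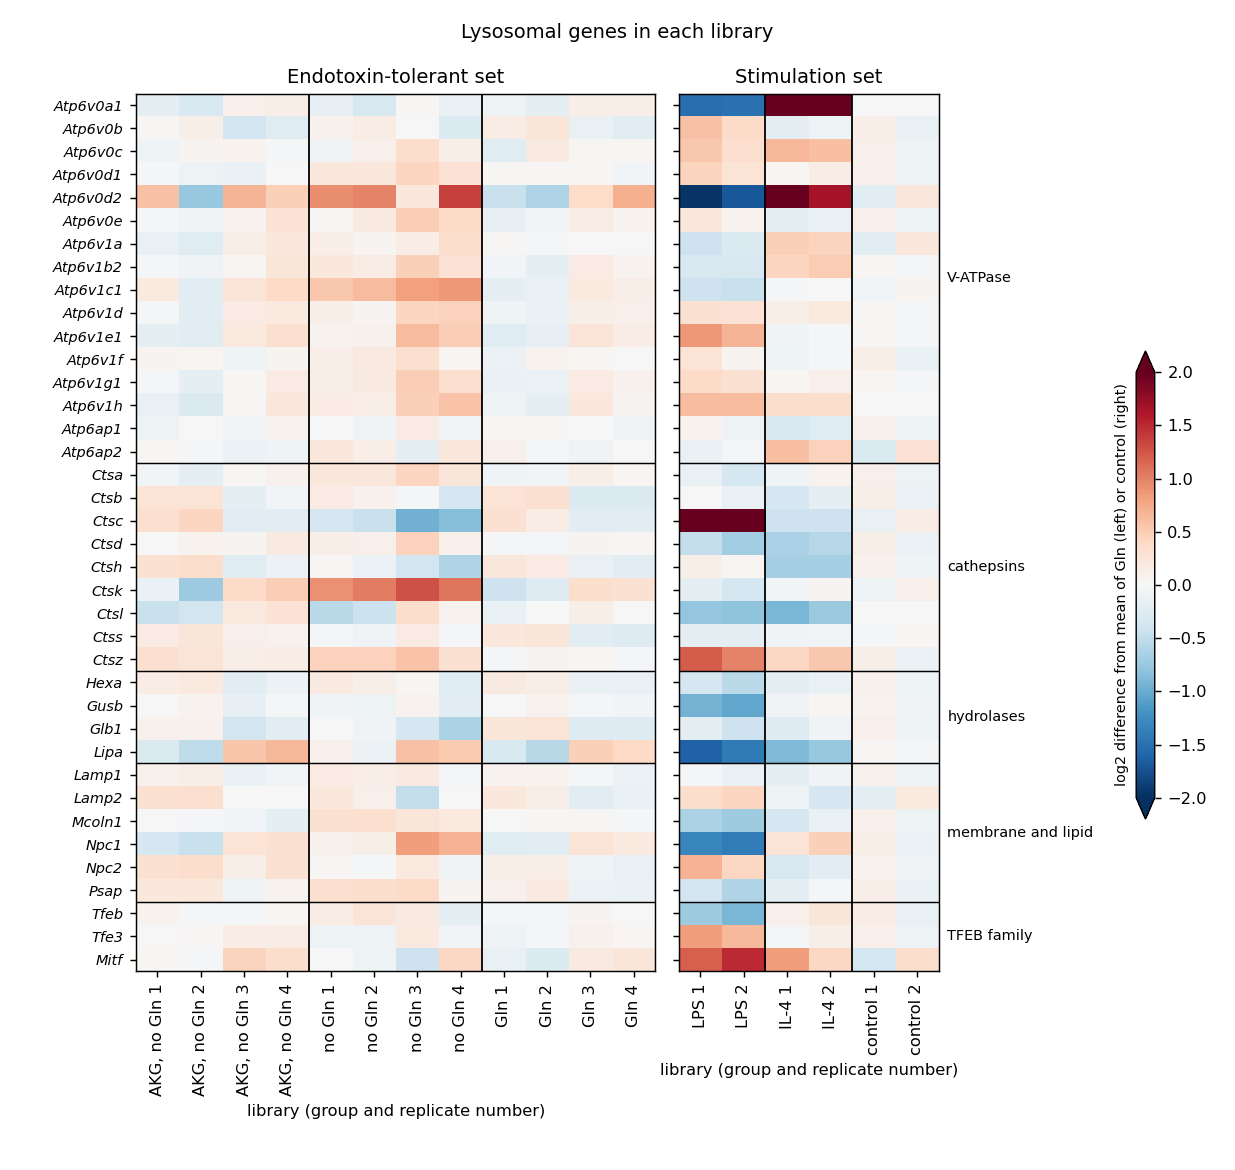
Heat map of the 38 genes (down the page, by class) across the 18 libraries, as the log2 difference of log2(CPM + 0.5) from the mean of the glutamine libraries (left panel) or of the control libraries (right panel); the 2 tables were normalised separately. The right panel holds the deeper colours, with Atp6v0a1 and Atp6v0d2 low in LPS and high in IL-4 libraries, Ctsc high in LPS libraries, and Ctsk high in all 4 glutamine-free libraries of the left panel.

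The first question was what lysosomal genes did in tolerant macrophages without glutamine. In glutamine-free over glutamine libraries, 5 of the 38 genes rose and 0 fell, beside 4.7% of all 12492 genes called at an adjusted p below 0.05 (2.3% higher, 2.4% lower). They were Ctsk, the V1 stalk subunit Atp6v1c1, the carboxypeptidase Ctsz, the V0 subunit Atp6v0d1 and the lysosomal calcium channel Mcoln1. The median log2 fold change was 0.15 over the 38 genes and -0.01 over all genes tested. Of the 16 pump genes 14 had a positive fold change, with a median of 0.28, but 2 passed the test. None of the 4 hydrolases and none of Tfeb, Tfe3 and Mitf passed it. The 2 groups did not overlap in 9 of the 38 genes, beside 12.4% of all genes.

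Ctsk had the largest fold. It stood at 25.6, 27.7, 33 and 28.5 CPM in the glutamine-free libraries, against 9.90, 11.1, 17.2 and 16.7 CPM in the glutamine libraries (chr3:95499256-95509362). Every glutamine-free library was above every glutamine library (log2 fold change 1.06, SE 0.27, adjusted p = 0.047). Its level stayed low beside the other cathepsins, at 18.98 ± 2.06 against 9.09 ± 2.49 CPM per kb (SD, n = 4 each). The Ctsk call was lost on leaving out any 1 glutamine or glutamine-free library, or α-ketoglutarate replicate 1, with the adjusted p reaching 0.12.

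Ctsz stood at 1515, 1535, 1641 and 1365 CPM in glutamine-free libraries, against 1076, 1154, 1137 and 1078 CPM in glutamine libraries, with no overlap (log2 fold change 0.45, SE 0.08, adjusted p = 0.011). Atp6v1c1, the C subunit that holds V1 on V0, stood at 229, 245, 278 and 287 CPM in glutamine-free libraries, against 138, 143, 180.4 and 174 CPM in glutamine libraries (chr15:38661933-38692446). These groups did not overlap either (log2 fold change 0.71, SE 0.14, adjusted p = 0.017), and the calls of Ctsz and Atp6v1c1 held with each of the 12 libraries left out.

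Atp6v0d1, the d subunit that links the stalk to the proteolipid ring, stood at 188, 187, 217 and 197 CPM in glutamine-free libraries, against 163, 164, 164 and 155 CPM in glutamine libraries. Its rise was small but without overlap (log2 fold change 0.29, SE 0.07, adjusted p = 0.031). Mcoln1, the TRPML1 channel that releases lysosomal calcium, stood at 81.3, 83.4, 77.4 and 75.2 CPM in glutamine-free libraries, against 65.2, 66.5, 67.1 and 64.2 CPM in glutamine libraries, again without overlap (log2 fold change 0.27, SE 0.06, adjusted p = 0.025). Atp6v0d1 lost its call without any 1 glutamine library or without glutamine-free replicate 2 or 3, and Mcoln1 without any 1 glutamine library or without glutamine-free replicate 1 or 2 (highest adjusted p 0.083 and 0.083). The count of called genes was 2 without any 1 glutamine library or without glutamine-free replicate 2, and 3 without glutamine-free replicate 1 or 3. Atp6v0d1 and Mcoln1 also lost their calls with the 2 groups alone, Mcoln1 in replicates 3 and 4 alone, Atp6v0d1 and Ctsk with no filter on low counts, and Ctsk with a filter of 1 CPM.

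Same-numbered libraries deviated together in this table, and so did differently numbered libraries within replicates 1 and 2 or within 3 and 4. These deviations therefore do not show that the numbers mark pairs. A fit with the replicate number as a block was also made. It called 17 of the 38 genes, 14 higher and 3 lower, beside 21.7% of all genes (8.68% higher, 13% lower). With the replicate block the pump subunits Atp6v0e 0.27 (adjusted p = 0.018), Atp6v1b2 0.28 (adjusted p = 0.014), Atp6v1d 0.27 (adjusted p = 0.0068), Atp6v1e1 0.32 (adjusted p = 0.0035), Atp6v1g1 0.28 (adjusted p = 0.011) and Atp6v1h 0.34 (adjusted p = 0.0050) were called higher in log2 fold change. So were Ctsa 0.27 (adjusted p = 0.0096), which protects β-galactosidase, Psap 0.28 (adjusted p = 0.040) and the cholesterol exporter Npc1 0.43 (adjusted p = 0.0013). The 3 called lower with the block were Ctsc -0.65 (adjusted p = 0.00012), Ctsh -0.27 (adjusted p = 0.016) and Glb1 -0.26 (adjusted p = 0.029), which encode a dipeptidyl peptidase, an aminopeptidase and β-galactosidase.

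Ctsc, called with the block and not without it, stood at 783, 723, 505 and 547 CPM in glutamine-free libraries, against 1217, 1097, 844 and 843 CPM in glutamine libraries. Within each of the replicate pairs 1 and 2, and 3 and 4, the glutamine-free libraries were the lower ones, and the groups did not overlap. Without the block the log2 fold change was -0.65 (adjusted p = 0.11, SE 0.21). Npc1 stood at 363, 369, 606 and 551 CPM in glutamine-free libraries, against 288, 292, 413 and 389 CPM in glutamine libraries. Its groups overlapped, and replicates 3 and 4 were the higher ones in both (log2 fold change 0.45, SE 0.23, adjusted p = 0.35 without the block). Atp6v0d2, the alternative d subunit, stood at 52.5, 54.7, 31.7 and 71.05 CPM in glutamine-free libraries, against 19.7, 17.5, 35.2 and 44.7 CPM in glutamine libraries. These overlapped, and the test was not passed with or without the block (log2 fold change 0.84, SE 0.38, adjusted p = 0.27 without it). Ctss was the one gene of the 38 whose fold change in this comparison differed between the replicate pairs, 0.32 in replicates 3 and 4 against -0.28 in replicates 1 and 2 (difference 0.58, SE 0.11, adjusted p = 0.032). That difference was called in 2.45% of all genes in this comparison. In the α-ketoglutarate over glutamine-free and α-ketoglutarate over glutamine comparisons it was called in 0 of the 38 genes, beside 0.056% and 1.61% of all genes.

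Stromal markers moved with glutamine as well. Of the 10 on the list 8 were tested, and 5 fell in glutamine-free over glutamine libraries, beside 2.4% of all genes. The median log2 fold change over the 8 was -3.10. With the replicate block all 8 were called lower, beside 13% of all genes. Comparing α-ketoglutarate libraries with either other group called 0 of the 8 without the block. With it, 6 were called higher in α-ketoglutarate over glutamine-free libraries, beside 8.32% of all genes. In α-ketoglutarate over glutamine libraries 7 were called lower with the block, beside 5.38%. The medians of these 2 comparisons without the block were 0.96 and -2.03. The list summed to 50.4 to 210 CPM in glutamine-free libraries, 111 to 397 in α-ketoglutarate and 397 to 2079 CPM in glutamine libraries, while Lum and Thy1 had at most 12 and 23 counts in any tolerant library. The part of stromal RNA in the lysosomal results was not tested.

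The second question was what α-ketoglutarate did in the absence of glutamine. In α-ketoglutarate over glutamine-free libraries, 2 of the 38 genes fell and 0 rose, beside 1.49% of all genes called (0.64% higher, 0.849% lower). They were Atp6v0d1 and Mcoln1. The median log2 fold change was -0.13 over the 38 genes and 0.01 over all genes tested, and 1 of the 16 pump genes had a positive fold change. This comparison shares the glutamine-free libraries with the one before it, and the third shares libraries with both, so their values stand side by side and are not independent. The groups did not overlap in 6 of the 38 genes, beside 9.1% of all genes.

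Atp6v0d1 stood at 159, 150.4, 147 and 161 CPM in α-ketoglutarate libraries, against 188, 187, 217 and 197 CPM in glutamine-free libraries. All 4 α-ketoglutarate libraries were lower (log2 fold change -0.35, SE 0.07, adjusted p = 0.030). Mcoln1 stood at 65.1, 63.8, 63.4 and 58.1 CPM in α-ketoglutarate libraries, against 81.3, 83.4, 77.4 and 75.2 CPM in glutamine-free libraries, also with no overlap (log2 fold change -0.34, SE 0.06, adjusted p = 0.021). Leaving out glutamine-free replicate 1 or 2, or α-ketoglutarate replicate 2, 3 or 4, left 0 of the 38 called, and leaving out glutamine-free replicate 4 or α-ketoglutarate replicate 1 left 1. Both calls were lost with the 2 groups alone and in replicates 3 and 4 alone, and that of Atp6v0d1 with no filter on low counts. DESeq2 called 7 of the 38, beside 682 of all genes (186 with edgeR).

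With the replicate block 14 genes were called, 12 lower and 2 higher, beside 15.3% of all genes (8.32% higher, 7.03% lower). Ctsk stood at 12.2, 7.85, 17.5 and 19.1 CPM in α-ketoglutarate libraries, against 25.6, 27.7, 33 and 28.5 CPM in glutamine-free libraries. All α-ketoglutarate libraries were lower; the log2 fold change was -1.02 (adjusted p = 0.093, SE 0.27) without the block and -1.08 (adjusted p = 0.0042) with it. Atp6v1c1 stood at 181, 136, 189 and 208 CPM in α-ketoglutarate libraries, against 229, 245, 278 and 287 CPM in glutamine-free libraries. These did not overlap either, and the log2 fold change was -0.54 (adjusted p = 0.088, SE 0.14) without the block and -0.55 (adjusted p = 0.0028) with it. The other pump genes called lower with the block were Atp6v1b2 -0.24 (adjusted p = 0.040), Atp6v1d -0.24 (adjusted p = 0.016), Atp6v1e1 -0.29 (adjusted p = 0.0089), Atp6v1g1 -0.30 (adjusted p = 0.013) and Atp6v1h -0.38 (adjusted p = 0.0043). Npc1 -0.48 (adjusted p = 0.0018), Ctsa -0.31 (adjusted p = 0.0088) and Ctsz -0.23 (adjusted p = 0.042) were lower too.

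The 2 genes called higher with the block were Ctsc and Ctsh. Ctsc stood at 1233, 1334, 839 and 855 CPM in α-ketoglutarate libraries, against 783, 723, 505 and 547 CPM in glutamine-free libraries, with no overlap. The log2 fold change of Ctsc was 0.74 (adjusted p = 0.12, SE 0.21) without the block and 0.73 (adjusted p = 0.00028) with it. Ctsh stood at 427, 438, 293 and 317 CPM in α-ketoglutarate libraries, against 349, 318, 265 and 228 CPM in glutamine-free libraries, and here the groups overlapped. The log2 fold change of Ctsh was 0.35 (adjusted p = 0.45, SE 0.18) without the block and 0.34 (adjusted p = 0.0077) with it.

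**Figure D2:**
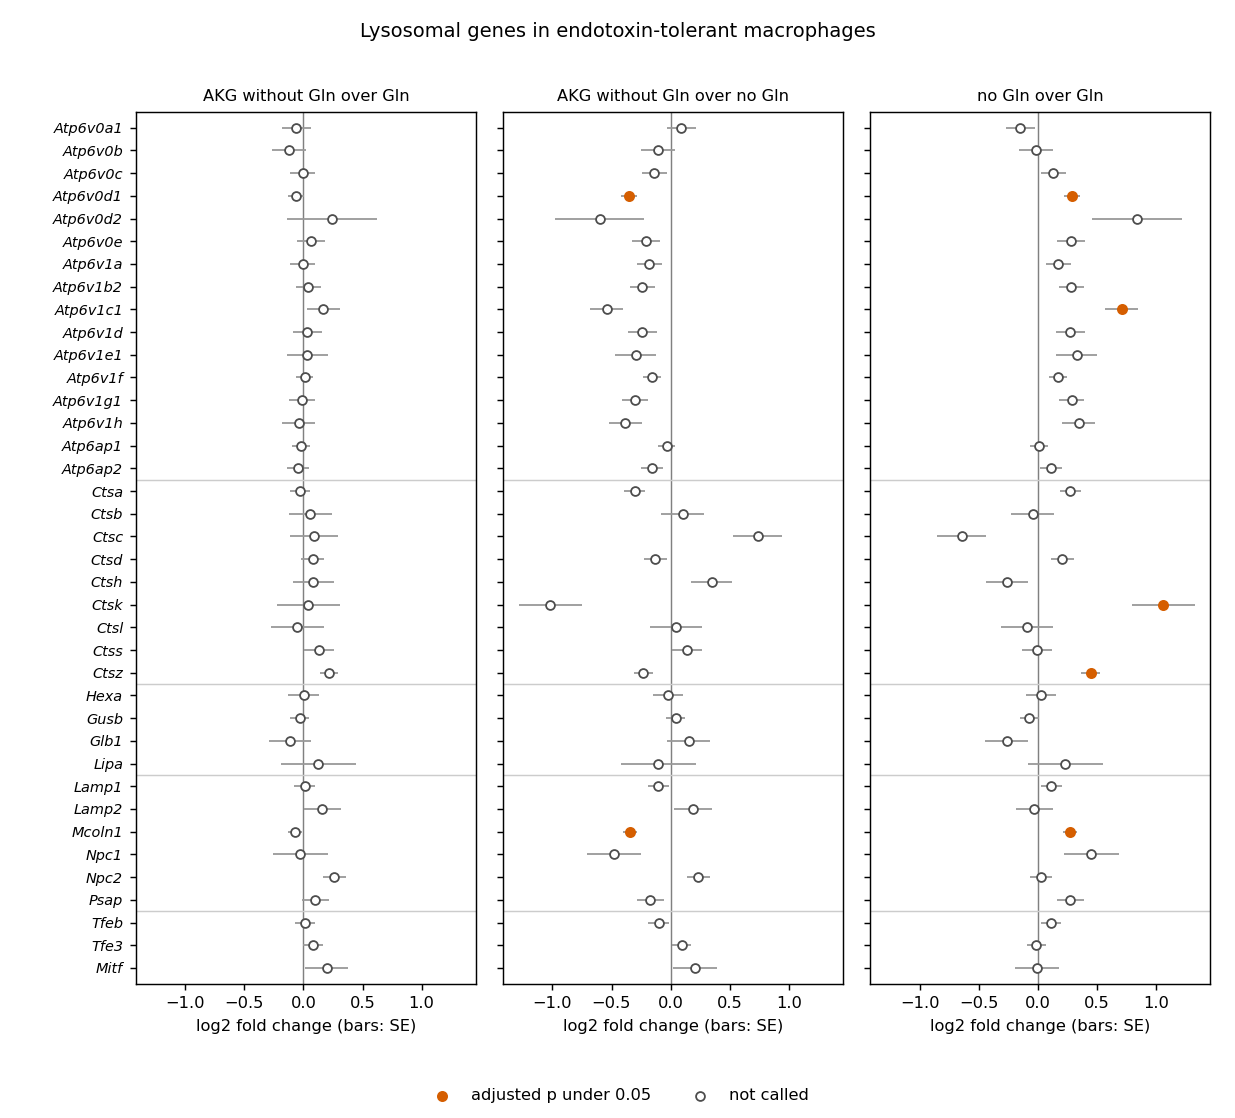
Log2 fold change with its SE for each of the 38 genes (down the page, by class) in tolerant macrophages: α-ketoglutarate over glutamine, α-ketoglutarate over glutamine-free, and glutamine-free over glutamine (4 libraries per group); orange marks an adjusted p below 0.05. The glutamine-free over glutamine panel has 5 orange points, all above 0, the α-ketoglutarate over glutamine-free panel has 2, both below 0, and in the α-ketoglutarate over glutamine panel every gene lies between -0.12 and 0.26.

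The third comparison set α-ketoglutarate against glutamine directly. None of the 38 genes was called by edgeR, nor by DESeq2, limma-voom or the fit with the replicate block. Over all genes edgeR called 0%, DESeq2 called 232 genes, limma-voom 0 and the block fit 7.01% (1.63% higher, 5.38% lower). An unadjusted p below 0.05 was reached by 2 of the 38 genes and by 916 of all genes (7.33%). Log2 fold changes lay between -0.12 and 0.26, with a median of 0.02. The largest was that of Npc2, the soluble partner of NPC1 in cholesterol export, at 2121, 2176, 1846 and 2100.0 CPM in α-ketoglutarate libraries, against 1851, 1876, 1610.0 and 1539 CPM in glutamine libraries. These overlapped (log2 fold change 0.26, SE 0.10, adjusted p = 0.47). Ctsz was the 1 gene whose groups did not overlap, beside 5.57% of all genes, at 1380.0, 1326, 1217 and 1237 CPM in α-ketoglutarate libraries against 1076, 1154, 1137 and 1078 CPM in glutamine libraries (log2 fold change 0.22, SE 0.08, adjusted p = 0.46). Ctsk, Atp6v1c1, Atp6v0d1 and Mcoln1 had log2 fold changes of 0.04 (adjusted p = 1.0, SE 0.26), 0.17 (adjusted p = 1.0, SE 0.14), -0.06 (adjusted p = 1.0, SE 0.07) and -0.07 (adjusted p = 1.0, SE 0.06). A p above the threshold does not show that the levels were equal.

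The TFEB family stayed within the spread in tolerant macrophages. Tfeb stood at 35.8, 33.2, 32.9 and 34.8 CPM in α-ketoglutarate, 37.8, 40.6, 38.5 and 29.9 in glutamine-free and 33.3, 33.5, 35.2 and 33.7 CPM in glutamine libraries. Tfe3 stood at 209.8, 214, 233 and 232 CPM in α-ketoglutarate, 194, 195, 239 and 202 in glutamine-free and 196, 207, 223 and 214 CPM in glutamine libraries. Mitf stood at 139, 132, 185 and 173 CPM in α-ketoglutarate, 137, 126, 102 and 181 in glutamine-free and 122, 113, 153 and 160.1 CPM in glutamine libraries. In each of these genes the 3 groups overlapped, and no adjusted p passed 0.05 with or without the block.

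Of the 97 other lysosomal pathway genes listed, 96 were in the tables and 86 were tested in tolerant macrophages. In glutamine-free over glutamine libraries 7 rose and 1 fell, beside 4.7% of all genes called, and the replicate block called 20 higher and 13 lower, beside 21.7%. The median log2 fold change over the 86 was 0.04 without the block and 0.03 with it. Rragd, a Rag GTPase of lysosomal nutrient sensing, averaged 50.2 against 21.8 CPM in glutamine-free and glutamine libraries (log2 fold change 1.20, SE 0.17, adjusted p = 0.0059). Hyal1, which cleaves hyaluronan, had a log2 fold change of 1.003 (adjusted p = 0.014, SE 0.18). The lysosomal membrane protein gene Laptm4b had one of 0.70 (adjusted p = 0.039, SE 0.17), and Fnip2, a partner of folliculin, one of 0.69 (adjusted p = 0.030, SE 0.16). The endolysosomal channel gene Tpcn1 fell (log2 fold change -0.50, SE 0.10, adjusted p = 0.021).

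In α-ketoglutarate over glutamine-free libraries 1 of these 86 genes rose and 3 fell, beside 1.49% of all genes called, and the replicate block called 11 higher and 17 lower, beside 15.3%. Tpcn1 rose (log2 fold change 0.58, SE 0.10, adjusted p = 0.024). Rragd fell, averaging 23.6 against 50.2 CPM in α-ketoglutarate and glutamine-free libraries (log2 fold change -1.08, SE 0.17, adjusted p = 0.015). The sorting adaptor gene Gga2 fell with a log2 fold change of -0.42 (adjusted p = 0.029, SE 0.08). In α-ketoglutarate over glutamine libraries 0 of the 86 were called, beside 0% of all genes. With the block 1 was called, lower, beside 7.01% of all genes (1.63% higher, 5.38% lower).

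In the other table the question was how 6 h of LPS or of IL-4 changed the same genes. LPS over control libraries called 25 of the 38 genes, 12 higher and 13 lower, beside 52.1% of all 12506 genes tested (22.8% higher, 29.3% lower). The median log2 fold change was -0.10 over the 38 genes and -0.10 over all genes tested, and another scaling (RLE size factors) moved the median of all genes by 0.10. By class, 7 pump genes rose and 4 fell, 2 cathepsins rose and 2 fell, 3 of the 4 hydrolases fell, 1 membrane or lipid gene rose and 3 fell, and 2 of the TFEB family rose and 1 fell. IL-4 over control libraries called 9 of the 38, beside 20.1% of all genes (9.66% higher, 10.5% lower). The 5 that rose were pump subunits, and the 4 that fell were the cathepsins Ctsl, Ctsh and Ctsd and the acid lipase Lipa. LPS over IL-4 libraries called 20, 9 higher and 11 lower, beside 53.1% of all genes (23.4% higher, 29.7% lower).

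The groups did not overlap in 31, 25 and 34 of the 38 genes in LPS over control, IL-4 over control and LPS over IL-4 libraries, beside 74.5%, 58.3% and 80.3% of all genes. The 3 comparisons share their libraries, with 2 per group. With LPS replicate 1 or 2 left out, 16 genes were called in LPS over control libraries. With IL-4 replicate 1 or 2 left out, 3 and 4 were called in IL-4 over control libraries. With LPS replicate 1 left out, 13 were called in LPS over IL-4 libraries. The calls held whichever library was left out for 13, 3 and 13 genes in the same order of comparisons. Some calls also ended under other settings. In LPS over control libraries Atp6v1b2, Hexa and Psap lost theirs with RLE size factors, with DESeq2 and with the 2 groups alone, and Atp6v0b, Atp6v0c, Atp6v0d1, Atp6v1d and Atp6v1g1 lost theirs with the 2 groups alone. Atp6v0d1 and Atp6v1d lost theirs with no filter on low counts as well, and Atp6v0d1 with a filter of 1 CPM. In IL-4 over control libraries Atp6v1h lost its call with RLE size factors, no filter or the 2 groups alone, and Ctsd with the 2 groups alone. In LPS over IL-4 libraries Mcoln1 lost its call with RLE size factors and with DESeq2, and Atp6v1h with no filter. With the replicate number as a block, Atp6v0d1, Atp6v1b2 and Atp6v1d lost their calls in LPS over control libraries. The block also ended the calls of Atp6v1h in IL-4 over control and of Atp6v1h and Atp6ap2 in LPS over IL-4 libraries.

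**Figure D3:**
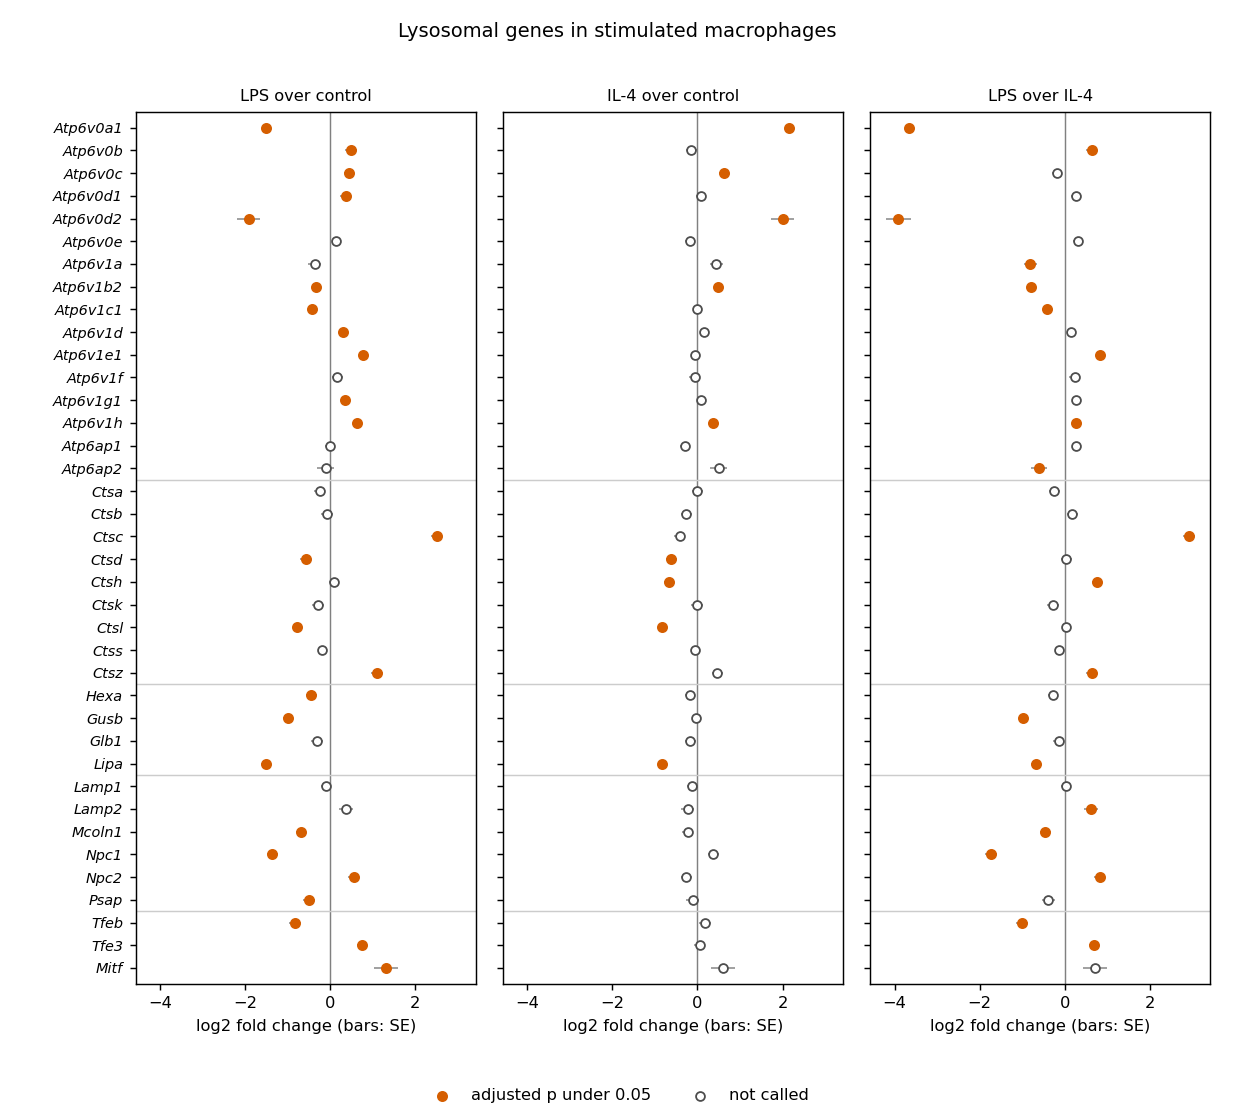
Log2 fold change with its SE for each of the 38 genes (down the page, by class) in LPS over control, IL-4 over control and LPS over IL-4 libraries (2 libraries per group); orange marks an adjusted p below 0.05. Atp6v0a1 and Atp6v0d2 lie far left with LPS, at -1.51 and -1.92, and furthest right with IL-4, at 2.15 and 2.0, while Ctsc lies furthest right with LPS at 2.50.

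Among pump genes the largest changes were those of 2 membrane-sector subunits. Atp6v0a1 encodes the a1 isoform of the proton-carrying a subunit (chr11:101009452-101063719). It stood at 98.5 and 99.3 CPM in LPS and 1223 and 1273 CPM in IL-4 libraries, against 279.9 and 283 CPM in control libraries. IL-4 libraries were 4.44-fold higher than control (log2 fold change 2.15, SE 0.09, adjusted p = 0.00015), and LPS libraries 2.84-fold lower (log2 fold change -1.51, SE 0.09, adjusted p = 8.9e-05). LPS and IL-4 libraries differed by a log2 fold change of -3.66 (adjusted p = 1.1e-05, SE 0.10).

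Atp6v0d2, the d2 isoform known from osteoclast fusion, stood at 5.88 and 7.20 CPM in LPS and 119 and 78.6 CPM in IL-4 libraries, against 20.9 and 28.5 CPM in control libraries (chr4:19876841-19922605). None of the 3 groups overlapped. Its log2 fold change was -1.92 (adjusted p = 0.0028, SE 0.27) in LPS over control, 2.0 (adjusted p = 0.0063, SE 0.27) in IL-4 over control and -3.92 (adjusted p = 0.00025, SE 0.29) in LPS over IL-4 libraries.

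Osteoclast markers moved alongside. Of the 6 on the list 4 were tested: all 4 fell with LPS, and with IL-4 Itgb3 and Ocstamp rose and Nfatc1 fell. Of all genes 29.3% fell with LPS, and with IL-4 9.66% rose and 10.5% fell. The list summed to 30.1 to 31.7 CPM in LPS and 306 to 322 CPM in IL-4 libraries, against 79.5 to 89.7 CPM in control libraries. Itgb3, an integrin subunit, averaged 259 against 5.71 CPM in IL-4 and control libraries. Calcr and Oscar, which mark mature osteoclasts, had at most 5 and 3 counts in any of these libraries. The part of osteoclast-like cells in the pump results was not tested.

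The a and d subunits are each encoded by several genes, and their shares are given per kilobase of exon. Tcirg1 encodes the a3 isoform and is not among the 38; it is named here after its values were seen. Among Atp6v0a1, Tcirg1 and Atp6v0a2, Atp6v0a1 held 4.46% and 5.44% in LPS and 62.6% and 60.7% in IL-4 libraries, against 23.3% and 26.7% in control libraries. Tcirg1 held 92.2% and 90.8% in LPS and 35.0% and 36.8% in IL-4 libraries, against 72.6% and 69.15% in control libraries. Its own level rose with LPS, to 1429 and 1163 CPM in LPS libraries, against 612 and 514 CPM in control libraries (log2 fold change 1.20, SE 0.15, adjusted p = 0.0013). With IL-4 it stood at 480.0 and 542 CPM, and its fold change over control libraries on the log2 scale was -0.14 (adjusted p = 0.61, SE 0.15). Between the d genes, Atp6v0d2 held 1.65% and 2.27% in LPS and 31.1% and 21.8% in IL-4 libraries, against 7.04% and 10.7% in control libraries, and Atp6v0d1 the rest. Each share comes from 1 library, and shares of a family must sum to the whole, so a lower share need not mean a lower level.

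**Figure D4:**
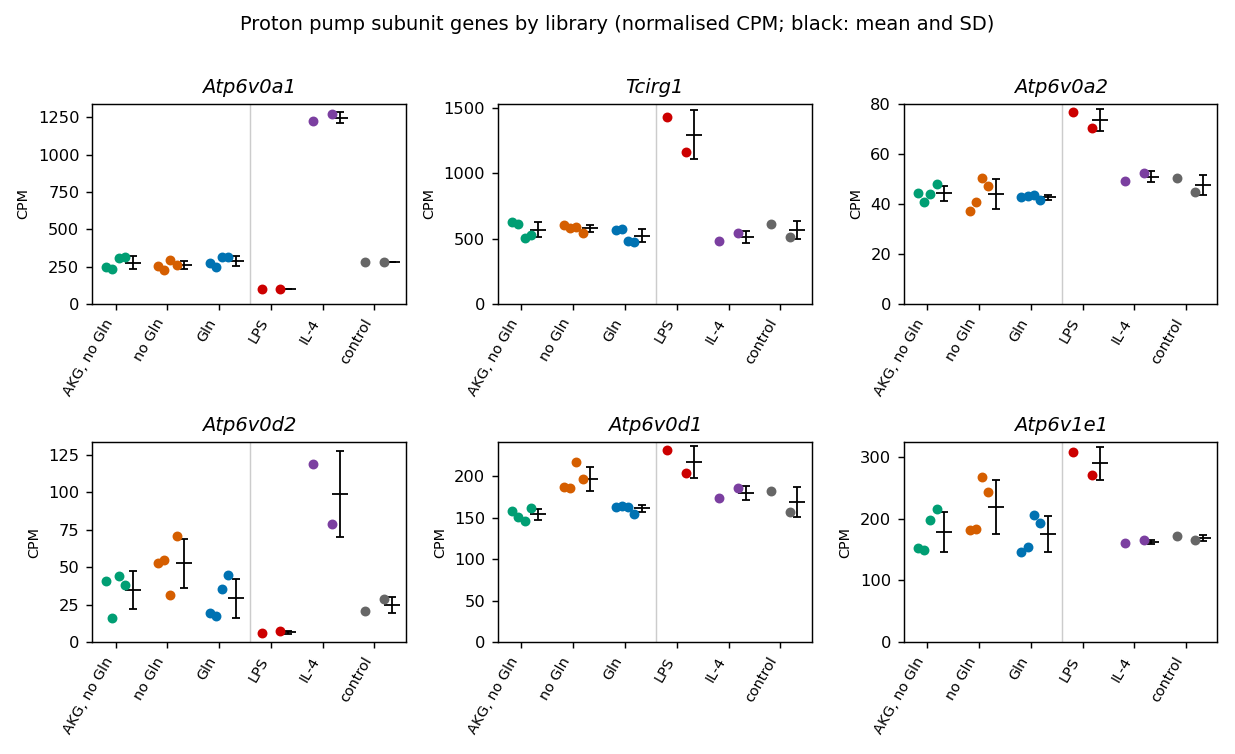
Level in CPM of 6 pump genes (Atp6v0a1, Tcirg1, Atp6v0a2, Atp6v0d2, Atp6v0d1 and Atp6v1e1), with a point per library and the mean and SD of each group; the 2 tables were normalised separately. Atp6v0a1 reaches 1223 and 1273 CPM in IL-4 libraries against 98.5 and 99.3 CPM in LPS libraries, while Tcirg1 and Atp6v1e1 are highest in LPS libraries.

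The ATP-binding subunits of V1 were lower in LPS than in IL-4 libraries. Atp6v1a, the catalytic A subunit, stood at 439 and 477 CPM in LPS, against 809 and 799 CPM in IL-4 libraries, and at 507 and 673 CPM in control libraries. LPS and IL-4 libraries differed (log2 fold change -0.81, SE 0.15, adjusted p = 0.0057), while neither passed the test against control (adjusted p = 0.090 for LPS and 0.097 for IL-4). Its partner Atp6v1b2 stood at 630.4 and 629 CPM in LPS and 1068 and 1119 CPM in IL-4 libraries, against 805 and 771 CPM in control libraries. It fell with LPS (log2 fold change -0.32, SE 0.09, adjusted p = 0.027) and rose with IL-4 (log2 fold change 0.47, SE 0.09, adjusted p = 0.017), with the LPS call lost without LPS replicate 1 or 2, IL-4 replicate 1 or 2 or control replicate 1 (adjusted p up to 0.16) and the IL-4 call lost without IL-4 replicate 1 or 2 (adjusted p up to 0.16). LPS over IL-4 gave a log2 fold change of -0.80 (adjusted p = 0.00080, SE 0.09).

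Atp6v1e1, a stalk subunit, stood at 308 and 271 CPM in LPS and 160.3 and 165 CPM in IL-4 libraries, against 172 and 165 CPM in control libraries. It rose with LPS over control (log2 fold change 0.78, SE 0.10, adjusted p = 0.0015) and was higher in LPS than in IL-4 libraries (log2 fold change 0.83, SE 0.10, adjusted p = 0.0011). Atp6v1h, a regulatory subunit, stood at 147 and 149 CPM in LPS and 123 and 123 CPM in IL-4 libraries, against 94.7 and 96.6 CPM in control libraries. It rose with both stimuli, by a log2 fold change of 0.63 (adjusted p = 0.0018, SE 0.09) with LPS and 0.36 (adjusted p = 0.038, SE 0.09) with IL-4. The call with IL-4 was lost without LPS replicate 1 or 2, IL-4 replicate 1 or 2 or control replicate 2 (adjusted p up to 0.25).

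The proteolipid gene Atp6v0c stood at 222 and 194 CPM in LPS and 242 and 232 CPM in IL-4 libraries, against 164 and 143 CPM in control libraries. It rose with LPS (log2 fold change 0.44, SE 0.12, adjusted p = 0.023) and with IL-4 (log2 fold change 0.63, SE 0.12, adjusted p = 0.016), with the LPS call lost without LPS replicate 1, IL-4 replicate 1 or 2 or control replicate 2 (adjusted p up to 0.14) and the IL-4 call lost without IL-4 replicate 1 or 2 (adjusted p up to 0.12). Atp6v0c has 2 processed copies elsewhere in the genome, so its counts are uncertain. The other pump genes called with LPS rose in Atp6v0b (0.49), Atp6v0d1 (0.36), Atp6v1d (0.30) and Atp6v1g1 (0.34) and fell in Atp6v1c1 (-0.44), on the log2 scale. The call of Atp6v0b was lost without LPS replicate 1, IL-4 replicate 1 or 2 or control replicate 2 (adjusted p up to 0.13), that of Atp6v0d1 was lost without LPS replicate 1 or 2, IL-4 replicate 1 or 2 or control replicate 2 (adjusted p up to 0.24) and that of Atp6v1d was lost without LPS replicate 1 or 2, IL-4 replicate 1 or 2 or control replicate 2 (adjusted p up to 0.15). The call of Atp6v1g1 was lost without LPS replicate 1 or 2, IL-4 replicate 1 or 2 or control replicate 2 (adjusted p up to 0.14) and that of Atp6v1c1 was lost without LPS replicate 1 or 2 (adjusted p up to 0.060). LPS and IL-4 libraries also differed in Atp6v0b (0.64), Atp6v1c1 (-0.42), Atp6v1h (0.27) and Atp6ap2 (-0.61), again on the log2 scale. Here the call of Atp6v0b was lost without LPS replicate 1 or IL-4 replicate 1 (adjusted p up to 0.065), and those of the other 3 were lost without any 1 LPS or IL-4 library (adjusted p up to 0.084, 0.22 and 0.19). Without the replicate block, Atp6v0e, Atp6v1f and Atp6ap1 were called in none of the 6 comparisons; with it, Atp6v0e was called in glutamine-free over glutamine libraries, as given above.

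Among the cathepsins LPS moved Ctsc most. Cathepsin C activates the serine proteases of immune cell granules by removing dipeptides from their N termini. It stood at 2261 and 2288 CPM in LPS and 300.2 and 298 CPM in IL-4 libraries, against 359 and 444 CPM in control libraries (chr7:88278085-88310888). LPS libraries were 5.67-fold higher than control (log2 fold change 2.50, SE 0.13, adjusted p = 6.2e-05) and also higher than IL-4 libraries (log2 fold change 2.93, SE 0.13, adjusted p = 3.2e-05). In IL-4 over control libraries the log2 fold change was -0.42 (adjusted p = 0.067, SE 0.13). Ctsz stood at 1725 and 1492 CPM in LPS and 995 and 1079 CPM in IL-4 libraries, against 814 and 685 CPM in control libraries. It rose with LPS over control (log2 fold change 1.10, SE 0.14, adjusted p = 0.0011) and was higher in LPS than in IL-4 libraries, at 0.63 (adjusted p = 0.0092, SE 0.13). That last call was lost without LPS replicate 1 or IL-4 replicate 1 (adjusted p up to 0.069).

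Ctsl, a broad endopeptidase, fell with both stimuli. It stood at 1432 and 1397 CPM in LPS and 1298 and 1451 CPM in IL-4 libraries, against 2460.0 and 2410.0 CPM in control libraries. All 4 stimulated libraries were below both controls, with log2 fold changes of -0.78 (adjusted p = 0.0014, SE 0.10) for LPS and -0.83 (adjusted p = 0.0038, SE 0.10) for IL-4, and LPS and IL-4 libraries differed by 0.04 (adjusted p = 0.76, SE 0.10). Ctsd stood at 6094 and 5227 CPM in LPS and 5351 and 5678 CPM in IL-4 libraries, against 9118 and 7781 CPM in control libraries. Ctsd fell in LPS libraries, with a log2 fold change of -0.58 (adjusted p = 0.014, SE 0.14), and in IL-4 libraries, with one of -0.62 (adjusted p = 0.027, SE 0.14). The Ctsd call with LPS was lost without LPS replicate 2 or control replicate 1 (adjusted p up to 0.091), and that with IL-4 was lost without IL-4 replicate 1 or 2 or control replicate 1 (adjusted p up to 0.18).

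Ctsh stood at 285 and 271 CPM in LPS and 165 and 165 CPM in IL-4 libraries, against 279 and 248 CPM in control libraries. IL-4 libraries were below both other groups, with log2 fold changes of -0.68 (adjusted p = 0.0071, SE 0.10) for IL-4 over control and 0.75 (adjusted p = 0.0015, SE 0.10) for LPS over IL-4 libraries. The first of these was lost without IL-4 replicate 1 or 2 (adjusted p up to 0.081). Ctsb and Ctss were called in none of the 6 comparisons with or without the replicate block, Ctsa only in tolerant macrophages with it, and Ctsk in neither stimulation. Ctsk stood at 5.13 to 7.20 CPM over these 6 libraries.

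With LPS 3 of the 4 other hydrolases fell. Lipa, the lysosomal acid lipase that frees cholesterol and fatty acids from lipoprotein lipids, stood at 663 and 766 CPM in LPS and 1098 and 1201 CPM in IL-4 libraries, against 2075 and 1995 CPM in control libraries (chr19:34492318-34527474). It fell with both stimuli, by a log2 fold change of -1.51 (adjusted p = 0.00020, SE 0.12) with LPS and -0.82 (adjusted p = 0.0055, SE 0.12) with IL-4, and LPS libraries were also below IL-4 libraries at -0.69 (adjusted p = 0.0037, SE 0.12). The Lipa call with IL-4 was lost without IL-4 replicate 1 (adjusted p up to 0.063).

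Gusb, β-glucuronidase, stood at 279 and 261 CPM in LPS and 513 and 547 CPM in IL-4 libraries, against 564 and 514 CPM in control libraries. Gusb fell with LPS over control (log2 fold change -1.001, SE 0.10, adjusted p = 0.00057). Gusb was also lower in LPS than in IL-4 libraries (log2 fold change -0.98, SE 0.10, adjusted p = 0.00057), and IL-4 over control gave -0.02 (adjusted p = 0.92, SE 0.10). Hexa stood at 957 and 831 CPM in LPS and 1052 and 1107 CPM in IL-4 libraries, against 1290.0 and 1138 CPM in control libraries. Hexa fell with LPS (log2 fold change -0.44, SE 0.12, adjusted p = 0.024), a call lost without LPS replicate 2, IL-4 replicate 1 or 2 or control replicate 1 (adjusted p up to 0.16). Glb1 was called in none of the 6 comparisons without the replicate block, and in glutamine-free over glutamine libraries with it.

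Cholesterol export genes moved in opposite directions with LPS. Npc1, the membrane exporter, stood at 147 and 136 CPM in LPS and 436 and 505 CPM in IL-4 libraries, against 391 and 335 CPM in control libraries. Npc1 fell with LPS over control (log2 fold change -1.36, SE 0.13, adjusted p = 0.00043) and was lower in LPS than in IL-4 libraries (log2 fold change -1.73, SE 0.13, adjusted p = 0.00016). Npc2 stood at 1979 and 1637 CPM in LPS and 986 and 1058 CPM in IL-4 libraries, against 1290.0 and 1169 CPM in control libraries. It rose with LPS over control (log2 fold change 0.56, SE 0.13, adjusted p = 0.014), a call lost without LPS replicate 1 (adjusted p up to 0.081), and was higher in LPS than in IL-4 libraries (log2 fold change 0.82, SE 0.13, adjusted p = 0.0029).

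Mcoln1 stood at 36.2 and 34.2 CPM in LPS and 44.95 and 51.5 CPM in IL-4 libraries, against 60.5 and 52.9 CPM in control libraries. It fell with LPS over control (log2 fold change -0.69, SE 0.12, adjusted p = 0.0046) and was lower in LPS than in IL-4 libraries, at -0.45 (adjusted p = 0.022, SE 0.12), a call lost without LPS replicate 1 or 2 or IL-4 replicate 1 or 2 (adjusted p up to 0.16). Psap stood at 6191 and 5368 CPM in LPS and 7178 and 7880.0 CPM in IL-4 libraries, against 8924 and 7397 CPM in control libraries. Psap fell with LPS (log2 fold change -0.50, SE 0.14, adjusted p = 0.029), a call lost without LPS replicate 1 or 2, IL-4 replicate 1 or 2 or control replicate 1 (adjusted p up to 0.18). Lamp2, an abundant membrane glycoprotein, was higher in LPS than in IL-4 libraries (log2 fold change 0.61, SE 0.16, adjusted p = 0.022), a call lost without LPS replicate 1 or 2 or IL-4 replicate 2 (adjusted p up to 0.13). Its companion Lamp1 was called in none of the 6 comparisons.

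The 3 transcription factor genes did not move together with LPS. Tfeb stood at 37.5 and 32.7 CPM in LPS and 66.4 and 73.5 CPM in IL-4 libraries, against 68.4 and 55.96 CPM in control libraries. It fell with LPS over control (log2 fold change -0.82, SE 0.14, adjusted p = 0.0042) and was lower in LPS than in IL-4 libraries (log2 fold change -0.99, SE 0.14, adjusted p = 0.0019). Tfe3 stood at 437 and 384 CPM in LPS and 242 and 265 CPM in IL-4 libraries, against 261 and 229 CPM in control libraries. It rose with LPS over control (log2 fold change 0.75, SE 0.12, adjusted p = 0.0035) and was higher in LPS than in IL-4 libraries (log2 fold change 0.70, SE 0.12, adjusted p = 0.0044).

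Mitf stood at 242 and 297 CPM in LPS and 187 and 140.3 CPM in IL-4 libraries, against 82.1 and 134 CPM in control libraries. Its control libraries were far apart. It rose with LPS (log2 fold change 1.31, SE 0.29, adjusted p = 0.015), a call lost without LPS replicate 2 (adjusted p up to 0.079). IL-4 over control libraries gave adjusted p = 0.48 for Tfeb, 0.84 for Tfe3 and 0.23 for Mitf.

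**Figure D5:**
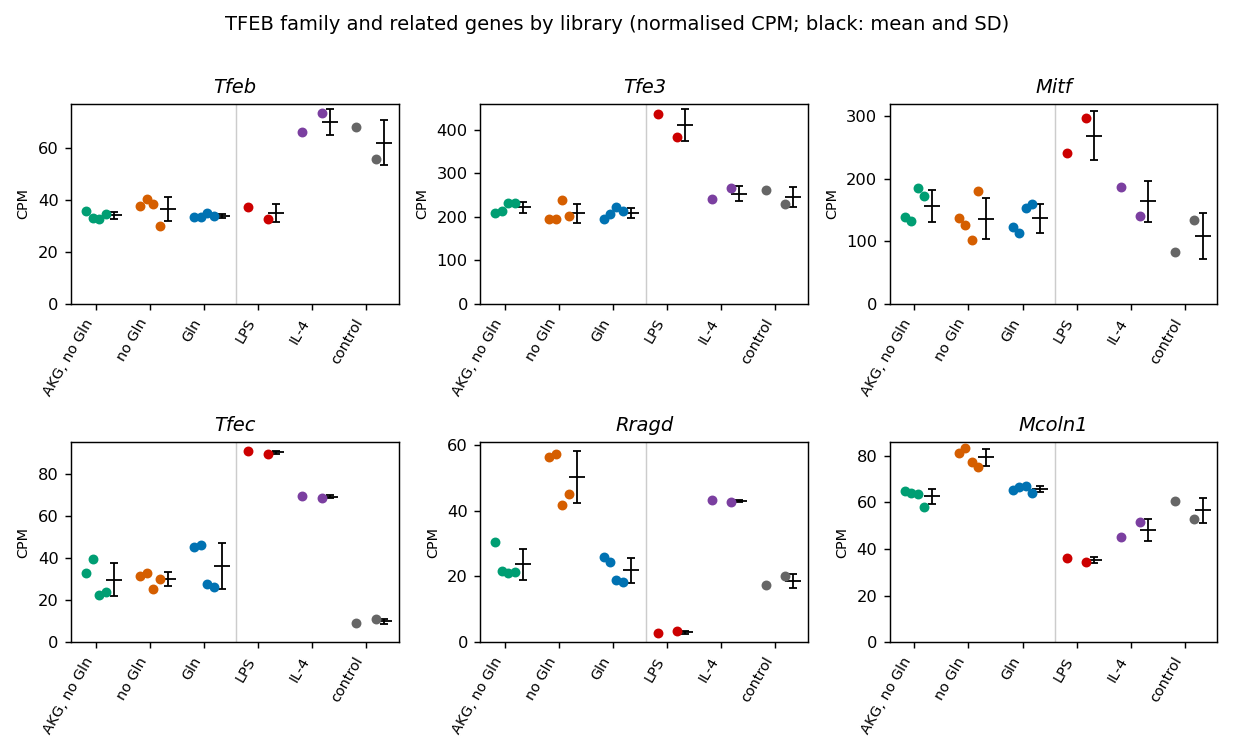
Level in CPM of Tfeb, Tfe3, Mitf, Tfec, Rragd and Mcoln1, with a point per library and the mean and SD of each group; the 2 tables were normalised separately. With LPS, Tfeb (32.7 and 37.5 CPM) lies below both control libraries while Tfe3 and Mitf lie above them, and in tolerant macrophages Rragd and Mcoln1 are highest in the glutamine-free libraries.

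Of the other lysosomal pathway genes 87 were tested in this table, and 15 rose and 41 fell in LPS over control libraries. Over all genes tested 52.1% were called (22.8% higher, 29.3% lower). The largest rises were those of Cst7, the cathepsin inhibitor cystatin F (log2 fold change 4.20, SE 0.28, adjusted p = 0.00012), Tfec, the remaining member of the TFEB family (log2 fold change 3.18, SE 0.12, adjusted p = 2.8e-05), the endolysosomal channel gene Mcoln2 (log2 fold change 2.92, SE 0.10, adjusted p = 2.6e-05) and Acp5, tartrate-resistant acid phosphatase (log2 fold change 2.85, SE 0.22, adjusted p = 0.00018). The largest falls were those of Sgsh, which removes sulfate from heparan sulfate (log2 fold change -4.46, SE 0.17, adjusted p = 2.7e-05), Tpcn1 (log2 fold change -3.09, SE 0.11, adjusted p = 2.7e-05), Rragd (log2 fold change -2.63, SE 0.15, adjusted p = 8.4e-05) and the sorting receptor gene Sort1 (log2 fold change -1.88, SE 0.12, adjusted p = 0.00012). Tfec stood at 90.8 and 89.6 CPM in LPS and 69.6 and 68.7 CPM in IL-4 libraries, against 9.12 and 10.8 CPM in control libraries.

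In IL-4 over control libraries 13 of these genes rose and 15 fell, beside 20.1% of all genes called (9.66% higher, 10.5% lower). The rises were led by Ppargc1b, a coactivator of nuclear receptors (log2 fold change 3.71, SE 0.17, adjusted p = 0.00017), Tfec (log2 fold change 2.80, SE 0.12, adjusted p = 0.00015), Cst7 (log2 fold change 2.40, SE 0.28, adjusted p = 0.0031) and Mcoln2 (log2 fold change 1.67, SE 0.09, adjusted p = 0.00032). The falls were led by Sort1 (log2 fold change -1.15, SE 0.12, adjusted p = 0.0021), Tpcn1 (log2 fold change -0.97, SE 0.10, adjusted p = 0.0023), Fnip2 (log2 fold change -0.78, SE 0.11, adjusted p = 0.0064) and the α-fucosidase gene Fuca1 (log2 fold change -0.78, SE 0.11, adjusted p = 0.0055).

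In LPS over IL-4 libraries 17 of these genes were higher and 34 lower, beside 53.1% of all genes called (23.4% higher, 29.7% lower). Acp5 (log2 fold change 2.71, SE 0.21, adjusted p = 0.00018), Cst7 (log2 fold change 1.79, SE 0.23, adjusted p = 0.0012), the acid phosphatase gene Acp2 (log2 fold change 1.52, SE 0.10, adjusted p = 9.2e-05) and Clcn7, the lysosomal chloride-proton exchanger (log2 fold change 1.47, SE 0.13, adjusted p = 0.00030), were highest in fold. Ppargc1b (log2 fold change -3.86, SE 0.18, adjusted p = 3.1e-05), Rragd (log2 fold change -3.83, SE 0.16, adjusted p = 2.3e-05), Sgsh (log2 fold change -3.74, SE 0.16, adjusted p = 2.8e-05) and the sialic acid exporter gene Slc17a5 (log2 fold change -2.72, SE 0.17, adjusted p = 8.0e-05) were lowest.

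Of the 38 genes, 6 overlap another annotated gene on the same strand: Atp6v0a1, Atp6v1e1, Ctsd, Ctsl, Ctss and Glb1. In all, 13 overlap one on the opposite strand. Whether the counting used strand is not stated, so reads of such pairs may have been counted together.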

How the data were processed

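Per the labels, total RNA of bone marrow-derived macrophages was extracted with TRIzol and RNeasy and made into TruSeq stranded libraries. The deposited tables hold whole-number read counts per gene symbol, from STAR alignment to mm10 and HTSeq counting per the submitters' processing notes; their versions and the strand setting are not stated. Every column of per-sample values was used.

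Each table was fitted alone with all of its groups in edgeR 4.0.16 under R 4.3.3 (TMM, filterByExpr, quasi-likelihood F test), with Benjamini-Hochberg adjustment over all 12492 or 12506 genes tested. A gene was called at an adjusted p below 0.05, SE is the fold change over the square root of F, and CPM is the count per 1000000 of TMM-scaled library size. Counting error covers only part of the spread, so replicate libraries set the errors. CPM per kb divides by merged exon length in GENCODE vM21, which matched 38 of 38 genes. Promoters came from the RefSeq table of GRCm38.p6. Tests were checked on simulated counts drawn independently for each library. That check left out the deviations that tolerant libraries of different groups shared.

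The genes and the lists were chosen with earlier results of these data known. Values in every library are given for up to 10 called genes per comparison by size of fold, for the highest gene per kb of each class, and for the TFEB family. Other pathway genes are named when called, up to 4 per direction and comparison. Genes outside this rule are given after their values were seen. A pathway gene that the rule names is counted but not reported here by name. In the tolerant table the deviations of same-numbered libraries from their group means correlated at 0.50 to 0.82 in all 12 pairs (other-numbered pairs -0.84 to 0.84). Other-numbered libraries within replicates 1 and 2, or within 3 and 4, deviated together as well. The replicate block is given beside the results, but these values do not show that the numbers mark pairs. What the numbers mark is not stated. In the other table same-numbered pairs correlated at -0.66 to 0.50. With 2 libraries per group the deviations mirror each other, so these values cannot settle whether the numbers pair samples. Alternatives were RLE size factors, other filters, DESeq2 1.42.0, limma-voom (limma 3.58.1), the 2 groups alone, the replicate block, each library left out, and replicate pairs alone or as a factor.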

Additional observations from a re-analysis of the deposited data

Results flagged for a closer look

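In 4 of the 114 sets of 4 tolerant libraries (38 genes in 3 groups), 1 library stood apart from the other 3 by more than Dixon's 95% critical value. Chance alone marks about 1 such set in 20. Ctsd stood at 13090 CPM in glutamine-free replicate 3, against 10160 to 10430 CPM in the other 3. Ctsa stood at 977.9 CPM in the same library, against 843.7 to 860.3 CPM. Atp6v1f stood at 77.0 CPM in α-ketoglutarate replicate 3, against 83.8 to 84.9 CPM. Atp6v0d1 stood at 154.6 CPM in glutamine replicate 4, against 163.2 to 163.9 CPM, and without that library its log2 fold change in glutamine-free over glutamine libraries was 0.28 (SE 0.07, edgeR adjusted p = 0.083).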

How the results depend on the processing

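Of 61 calls over the 6 comparisons, 31 stayed past an adjusted p of 0.05 in every alternative (2 of 5 in glutamine-free over glutamine, 0 of 2 in α-ketoglutarate over glutamine-free, 13 of 25 in LPS over control, 3 of 9 in IL-4 over control and 13 of 20 in LPS over IL-4 libraries), and no called fold change reversed. In glutamine-free over glutamine libraries (5 genes called), the count was 3 with no filter or with the 2 groups alone, 17 with the replicate block, 20 in replicates 1 and 2 alone, 9 in replicates 3 and 4 alone, and 17 with those pairs as a factor, an alternative added after seeing the data. In α-ketoglutarate over glutamine-free libraries (2 called), it was 1 with no filter, 7 with DESeq2, 0 with the 2 groups alone, 14 with the replicate block, 17 and 4 in the replicate pairs alone, and 15 with the factor. In α-ketoglutarate over glutamine libraries (0 called), it was 3 in replicates 1 and 2 alone. Leaving out 1 library gave 2 to 5, 0 to 2, 0 to 0, 16 to 22, 3 to 11 and 13 to 25 genes in the 6 comparisons in the order of the report. With 2 libraries a group, this leaves 1 library, assumed to vary like the others. In the 3 stimulation comparisons RLE size factors gave 23, 8 and 22 genes, DESeq2 23, 11 and 22, and the 2 groups alone 17, 7 and 24. Of all genes DESeq2 called 6272, 2574 and 6330 there. Whether the numbers pair samples in the stimulation table is not known. There the replicate block gave 22, 8 and 18 genes in place of 25, 9 and 20. Of all genes it called 6038, 1961 and 6100, in place of 6519, 2518 and 6641. Swapping the IL-4 numbers, added after seeing the data, gave 30, 18 and 29. The number of all genes called moved with the setting too. In glutamine-free over glutamine libraries it was 587 with edgeR, 1260 with DESeq2 and 2707 with the replicate block. In α-ketoglutarate over glutamine-free libraries it was 186, 682 and 1917 in the same order. Shares of all genes under the remaining settings are not given, so those counts do not set these genes apart from the rest. The causes were not tested.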

Other observations

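Between replicate numbers within the tolerant table, and with group in the fit, replicates 3 and 4 over 1 and 2 gave some of the larger differences of these genes. Lipa was higher by 0.81 on the log2 scale (SE 0.08, edgeR adjusted p = 7.8e-06) and Npc1 by 0.60 (SE 0.05, adjusted p = 1.1e-06), while Ctsc was lower at -0.52 (SE 0.05, adjusted p = 2.9e-06) and Glb1 at -0.45 (SE 0.05, adjusted p = 2.7e-05). What the numbers mark was not given, and the cause was not tested.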
